A study of Mus musculus with 20 samples.

Results

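The genes described here encode 8 calcium-binding proteins that neuroanatomists use to tell neurons apart, or that belong to the same protein families: Calb1 (calbindin), Calb2 (calretinin), Pvalb (parvalbumin), Necab1, Necab2, Necab3, S100a10 and S100b. They were taken by symbol from the tables of gene counts per well. All 8 were found once each among 37994 genes in the developmental series, and 7 among 36104 genes in a second set of plates at embryonic day 18, in which Pvalb was not analysed here.

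Calcium-binding proteins of the EF-hand type hold the ion in a loop between a pair of helices. Calbindin, calretinin and parvalbumin are buffers that shape the size and duration of calcium signals, and each is a classical label of particular neuron types. The NECAB proteins join an EF-hand region to a domain otherwise known from bacterial enzymes and are named for their neuronal expression. The S100 proteins are small EF-hand dimers, of which S100a10 has lost calcium binding and acts as the partner of annexin A2, and S100b is best known from glial cells. The habenula is a paired nucleus of the dorsal diencephalon with a medial and a lateral division, and most of its neurons express the transcription factor gene Pou4f1, also called Brn3a.

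Single cells from mouse habenula were processed in plates by CEL-Seq2, a method that tags the ends of polyadenylated RNA and counts molecules with unique molecular identifiers (UMIs). The series used mice of the Brn3a-tauLacZ line, which carries a tau-lacZ reporter at Brn3a, and covered embryonic days E11, E13, E15 and E18, postnatal days P4 and P7 and adults with 2 plates each, and E12 with 1 plate. The second set came from C57BL/6 embryos at E18. It held 2 left-sided plates, 2 right-sided plates and 1 plate of both sides, whose title gives E1 where its other labels give E18. The reporter genotype of each animal, the adults' age, the number of animals per plate and the gate that filled the wells were not given in the sources used here.

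After a filter on wells, 3729 of 5756 wells of the series and 1082 of 1920 wells of the second set were kept. The kept wells of a plate summed to between 758697 and 7760372 counts in the series and between 1849863 and 6586449 in the second set. Median depth was 5045.5 to 23052 UMIs per kept well in the series and 17093 to 28407 in the second set. All 5 genes of a habenula marker list had counts on every plate, and Pou4f1 was found in 28.1% to 92.2% of kept wells in the series and 46.2% to 81.0% in the second set. Plates of 1 stage were not interchangeable: on E18 plate 1 the summed neuron markers stood at 3272 counts per 1000000 (CPM) and the astrocyte markers at 3150 CPM, against 7863 and 436 on E18 plate 2. E13 plate 2 held ependymal and choroid plexus markers at 3937 CPM against 18.2 on E13 plate 1, and oligodendrocyte markers were at 10647 and 2453 CPM on the adult plates. The part of these mixtures in the differences between stages was not tested, and in sums over a plate fewer cells of a type and less RNA per cell cannot be told apart. Nothing states that plates of a group came from separate animals, so p-values measure the spread between plates, which may be technical.

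In the mm10 assembly, with GENCODE M21 gene models, Calb1 lies at chr4:15881264-15908064 on the plus strand and Necab1 on the same chromosome at chr4:14952245-15149794 on the minus strand. Calb2 (chr8:110137502-110168210, minus strand) and Necab2 (chr8:119446719-119472640, plus strand) share chromosome 8. Necab3 lies at chr2:154544399-154558890 (minus strand), S100a10 at chr3:93555080-93564643 (plus strand), S100b at chr10:76253853-76261159 (plus strand) and Pvalb at chr15:78191114-78206400 (minus strand). Necab1 overlaps the antisense models Gm11837 and Gm11844, Necab3 overlaps 1700003F12Rik and Actl10, and S100b overlaps Dip2a, each on the other strand. The sources used here do not say whether counting used strand, and reads of these pairs may not be separable. The other members overlap no annotated gene.

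Promoter sequences from RefSeq (GRCm38.p6) were matched for 4 of the 8 members, Pvalb, Necab2, Necab3 and S100b. Those of Necab2 and Necab3 are shown because these genes were higher in Pou4f1-positive wells of the second set, as described further on. They run upstream of the start of transcription, on chr8:119446469-119446718 (plus strand) and chr2:154558891-154559104 (minus strand), 5′ to 3′ on the gene's strand. Capitals mark the letters GGGCGG, or CCGCCC where they stand on the other strand, which are the core of the GC box.

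Necab2 promoter: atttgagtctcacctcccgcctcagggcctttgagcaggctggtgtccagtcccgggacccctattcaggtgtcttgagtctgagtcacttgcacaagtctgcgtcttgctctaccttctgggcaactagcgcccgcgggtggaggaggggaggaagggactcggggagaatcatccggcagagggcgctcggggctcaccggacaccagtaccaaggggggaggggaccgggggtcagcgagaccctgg
Necab3 promoter: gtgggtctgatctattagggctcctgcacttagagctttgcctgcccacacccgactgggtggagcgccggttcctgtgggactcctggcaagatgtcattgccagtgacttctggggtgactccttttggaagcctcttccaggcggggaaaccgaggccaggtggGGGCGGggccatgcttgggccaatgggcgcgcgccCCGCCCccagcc

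The stretch shown for Necab3 holds 214 bases and 2 matches, and that for Necab2 holds 250 bases and none. Over windows of 250 bases, 32.94% of 27025 promoters held GGGCGG on either strand, and Necab2 and Necab3 each held 13 CpG dinucleotides, a number reached by 31.85% of promoters, whose median was 6. A match describes the letters in the window only.

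Each of the 7 members that passed the filter on low counts in the series varied over the stages. S100a10 was highest at E11 and lowest at P4. On the series plates Calb1 was high at E11 and E12, low from E13 to E18 and high again at P7 and in adults. At E18 it was higher in the second set than in the series, as given below. Calb2 and Necab3 were low at E11 and reached their highest levels at P7 and in adults. Necab1 was found early and again around P4 and P7 and was low in between. All stages were tested together with edgeR's quasi-likelihood test and Benjamini-Hochberg adjustment, and the E12 plate was left out of this fit. Of the members tested 7 of 7 passed, where 46.4% of all 17453 genes tested passed. The adjusted p was 1.80e-05 for Necab3, 7.20e-05 for S100a10, 0.000195 for Necab1, 0.00133 for S100b, 0.00220 for Calb2, 0.00675 for Calb1 and 0.0351 for Necab2. The Necab2 call was lost when any 1 of the E11, P4, P7 or adult plates was left out (adjusted p up to 0.0929).

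**Figure D1:**
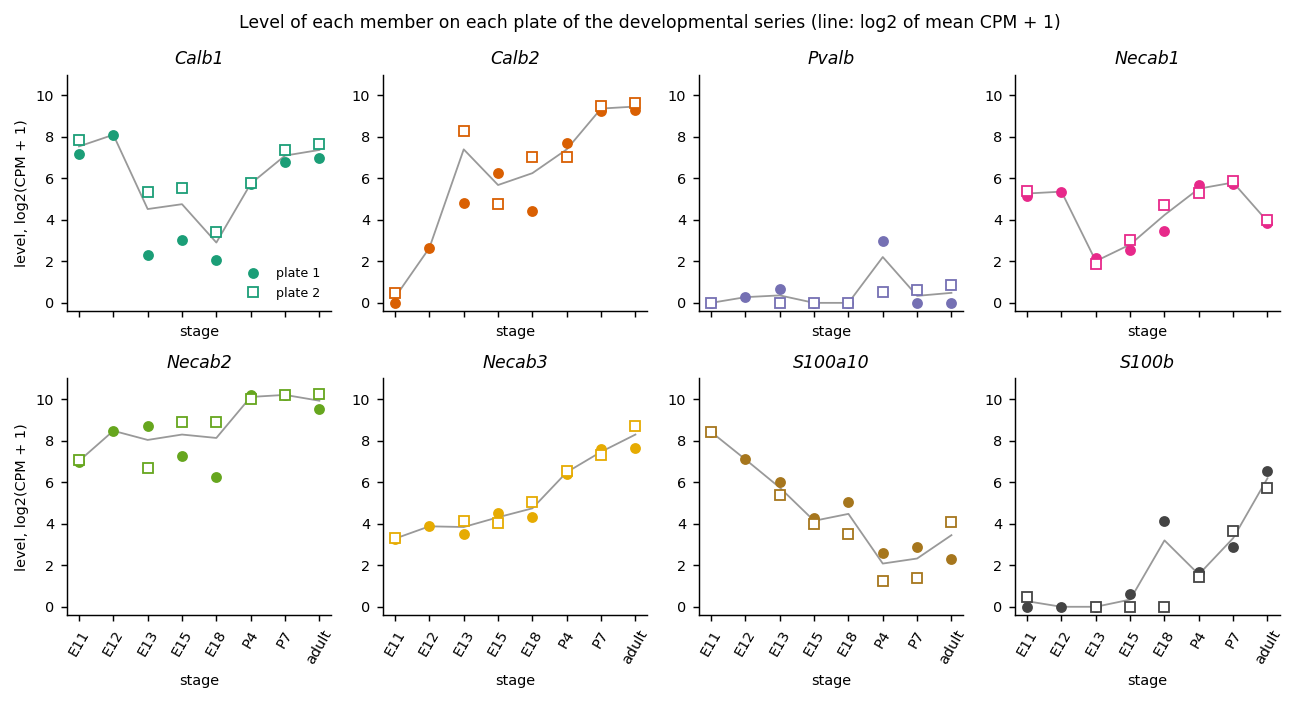
Level of each member in CPM (log2 scale of CPM + 1) on each of the 15 series plates, by stage from E11 to adult, with 1 point per plate and a line through the stage means. S100a10 starts at 342 and 343 CPM and ends between 1.38 and 15.9 from P4 on, Necab3 goes from 8.50 to 425, and Calb1 dips to between 3.19 and 44.9 from E13 to E18.

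Calb1, the buffer calbindin, stood at 144 and 226 CPM on the E11 plates and at 273 CPM on the E12 plate. At E13 it was at 3.98 and 39.9 CPM, then at 7.06 and 44.9 CPM at E15 and 3.19 and 9.80 CPM at E18. After birth it was at 51.1 and 53.7 CPM at P4, 108 and 163 CPM at P7 and 127 and 201 CPM in adults. All 6 series plates from E13 to E18 thus lay below every series plate of the other stages. The E18 plates of the second set, from C57BL/6 embryos, were higher than the E18 series plates. Mean Calb1 there was 54.2 CPM on the left (25.1% of kept wells), 44.4 CPM on the right (26.5%) and 44.1 CPM on the both-sides plate (18.0%). The low level at E18 was thus not seen in the second set, and the difference between the sets was not tested. The share of kept wells with a Calb1 UMI was 47.6% ± 3.65 (SD, n = 2 plates) at E11, 5.59% ± 3.67 (SD, n = 2) at E18 and 44.5% ± 0.513 (SD, n = 2) at P7. Shares of kept wells are given here at full depth, which differed between plates. With each well thinned to 2000 UMIs those of Calb1 were 17.6%, 1.32% and 17.5%. The step from E18 to P4 was a rise of 3.38 ± 0.99 (log2 fold change ± SE, adjusted p = 0.0353). It was lost without E18 plate 1 or either P4 plate and in a fit of those 4 plates alone (adjusted p up to 0.202), and it was 2.54 without E18 plate 1 and 4.40 without E18 plate 2. From E11 to E13 the log2 change of -3.24 ± 0.85 did not pass (adjusted p = 0.0842), but summed over Pou4f1-positive wells it was -4.58 ± 0.86 (adjusted p = 0.0220).

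Calb2, the buffer calretinin, had 0 UMIs on E11 plate 1, which allows up to 0.579 CPM, and 2 UMIs on E11 plate 2. It was at 5.27 CPM at E12, 27.3 and 307 CPM at E13, 74.5 and 25.9 CPM at E15 and 20.4 and 129.8 CPM at E18. At P4 it stood at 206 and 129 CPM, at P7 at 599.9 and 713 CPM and in adults at 625 and 779 CPM. The 4 plates of P7 and adults lay above all others. Between E11 and E13 the 2 UMIs became 625, a ratio of 863.8 per total count (95% counting interval 238.1 to 7148). With E13 plate 1 alone, which had 48 of the 625 UMIs, the ratio was 137.3 (36.0 to 1166). The test across plates passed (adjusted p = 0.0220). That call was lost without either E11 plate, without E13 plate 2 and in a fit of the 4 plates alone. Calb2 was found in 54.2% ± 7.19 of kept wells at P4, 87.4% ± 4.80 at P7 and 73.4% ± 2.84 in adults (SD, n = 2 plates each). With each well thinned to 2000 UMIs these shares were 19.8%, 47.9% and 48.7%. The fall from P7 to adults was thus not seen at equal depth. Of wells that failed the filter, up to 36.7% on a plate had a Calb2 UMI, so a UMI of this gene alone may not mark an expressing cell. Whether such UMIs came from a cell in the well was not tested.

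Pvalb, the buffer parvalbumin, was close to undetected outside 1 plate. On P4 plate 1 it was found in 28 of 287 kept wells (9.76%, exact 95% interval 6.58 to 13.8%) with 40 UMIs in all, at 6.78 CPM. Of those wells 20 held 1 UMI and the highest held 5, and they were spread over 15 plate rows and 15 plate columns. On the other 14 series plates at most 4 wells were positive, and P4 plate 2 had 2 of 322. Among the 97 wells of P4 plate 1 that failed the filter, with a median of 437 UMIs, 10 were also positive (10.3%). The share in kept wells was thus no higher than that in near-empty wells of the same plate. Of the 28 positive wells 27 had Pou4f1 and 18 had Calb2, against 237 and 152 of the other 259 wells.

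Necab1 stood at 34.4 and 40.7 CPM at E11 and 40.0 CPM at E12, then at 3.41 and 2.65 CPM at E13 and 4.89 and 7.13 CPM at E15. It was at 9.98 and 25.6 CPM at E18, 50.2 and 38.3 CPM at P4 and 52.5 and 56.8 CPM at P7, and in adults at 13.2 and 15.1 CPM. The E13 and E15 plates were the 4 lowest and shared no range with any other stage. In the second set at E18, mean Necab1 was 26.8 CPM on the left, 28.3 CPM on the right and 60.8 CPM on the both-sides plate. On adult plate 1, Necab1 was found in only 2 of 21 Pou4f1-positive and 2 of 35 Pou4f1-negative kept wells. It fell by 3.77 ± 0.49 from E11 to E13 (adjusted p = 0.00487), rose by 1.57 ± 0.39 from E18 to P4 (adjusted p = 0.020) and fell by 2.03 ± 0.40 from P7 to adults (adjusted p = 0.0245). Each of these 3 calls was lost with spliced counts only. At E11 and E12, 44.9% to 51.2% of its counts were spliced, against 67.6% to 79.2% at P4 and P7. The last of the calls was also lost when any 1 of its 4 plates was left out, the second without E18 plate 1 (0.91) or either P4 plate, while without E18 plate 2 it was 2.51, and the first without E13 plate 2.

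Necab2, of the same family, was at 124 and 134 CPM at E11, 356 CPM at E12, 423 and 100.5 CPM at E13, 152 and 476 CPM at E15 and 75.0 and 485 CPM at E18. It reached 1191 and 1017 CPM at P4, 1191 and 1171 CPM at P7 and 733 and 1212 CPM in adults. All 6 postnatal and adult plates lay above all 9 embryonic plates, and the E18 plates lay far apart from each other. It was found in 97.6% ± 1.43 of kept wells at P4 and 98.4% ± 0.575 at P7 (SD, n = 2 plates each). With each well thinned to 2000 UMIs, Necab2 was found in 81.4% and 85.8%. Up to 47.4% of wells that failed the filter had a UMI of it. No step between successive stages passed the test, and the step from E18 to P4 was +2.14 ± 0.86 (adjusted p = 0.0979).

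Necab3 was at 8.50 and 8.99 CPM at E11, 13.7 CPM at E12, 10.2 and 16.5 CPM at E13, 22.3 and 15.5 CPM at E15 and 19.2 and 32.4 CPM at E18. It then stood at 83.8 and 93.0 CPM at P4, 195 and 156 CPM at P7 and 202 and 425 CPM in adults. In the order of stage means, 5 of 7 neighbouring pairs had plate ranges that did not overlap, more than for any other member. It rose by 2.02 ± 0.39 from E18 to P4 (adjusted p = 0.00682), a call lost without P4 plate 2 and in the fit of 4 plates (adjusted p up to 0.0659). Its share of positive wells went from 11.3% ± 0.0159 at E11 to 66.4% ± 9.29 at P7 (SD, n = 2 plates each). With each well thinned to 2000 UMIs it went from 1.70% to 22.3%.

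S100a10, the annexin A2 partner, was at 343 and 342 CPM at E11, 136 CPM at E12, 64.2 and 40.9 CPM at E13 and 18.5 and 14.9 CPM at E15. It was at 31.9 and 10.5 CPM at E18, 5.09 and 1.38 CPM at P4, 6.45 and 1.58 CPM at P7 and 3.95 and 15.9 CPM in adults. E11, E12 and E13 were each apart from the next. S100a10 was found in 74.0% ± 7.49 of kept wells at E11 and 3.87% ± 2.40 at P4 (SD, n = 2 plates each). It fell by 2.85 ± 0.61 from E11 to E13 (adjusted p = 0.0467), a call lost without any 1 of those 4 plates. It also fell by 2.55 ± 0.71 from E18 to P4 (adjusted p = 0.0302), and this call was lost in Pou4f1-positive wells (adjusted p = 0.0752), without E18 plate 1 (-1.60), without P4 plate 1 (-3.65) or P4 plate 2 (-1.86) and in the fit of 4 plates alone.

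S100b, best known from astrocytes and oligodendrocyte lineage cells, was highest in adults, at 92.3 and 51.9 CPM. It was at 16.4 CPM on E18 plate 1, with its mixture of astrocyte and progenitor markers, and had no UMI on E18 plate 2, which allows up to 2.26 CPM. At P4 it stood at 2.20 and 1.69 CPM and at P7 at 6.32 and 11.5 CPM, and at most 0.543 CPM was found before E18. On P7 plate 2, 92.3% of its counts came from 5 wells, and on E18 plate 1, 63.4%. In adults 33.9% (exact 95% interval 21.8 to 47.8%) and 22.8% (18.5 to 27.6%) of kept wells were positive. The step from P7 to adults, +2.90 ± 0.92, did not pass (adjusted p = 0.111), although the adult plates lay above all others.

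Set against the background of each step, 3 of 7 members passed from E11 to E13, where 1.45% of genes did, and 4 of 7 from E18 to P4, where 19.6% did. From P7 to adults 1 of 7 passed, where 3.58% of genes did. No member passed in edgeR's test from E13 to E15 (0.0917% of genes), from E15 to E18 (0.195%) or from P4 to P7 (0.00573%). At an unadjusted p under 0.05 the same test found 1 member from E13 to E15 (S100a10), 3 from E15 to E18 (Calb1, Necab1 and S100b) and 1 from P4 to P7 (Necab3). In these 3 steps, in the same order, DESeq2 called 0, 0 and 0 members, a fit without the filter on low counts 2, 2 and 3, and a fit of the 4 plates compared 0, 0 and 4. The counts leaned on single plates: E11 to E13 gave between 0 and 2 members, and E18 to P4 between 0 and 7, when 1 plate was left out. Without E18 plate 2, leaving plate 1 with its astrocyte and progenitor markers to stand for E18, all 7 passed in the step to P4, and without plate 1 only 1 did.

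The genes whose log2 CPM ran most like each member over the 15 plates, among 8483 genes with a mean of at least 20 CPM, are given as a description. Calb1 ran most like Drp2 (r = 0.902), Slco3a1 (0.876) and Rogdi (0.848), and Calb2 like Atp5c1 (0.937), Gm13889 (0.921) and Kcng4 (0.919). For Necab1 they were Dtx1 (0.923), Arhgdig (0.907) and A730017C20Rik (0.905), and for Necab2 Apba1 (0.966), Ica1 (0.965) and Vstm2b (0.963). Necab3 had the highest value of all, with Dync1i1 (0.985), a dynein intermediate chain, followed by Sh3glb2 (0.979) and Ubl3 (0.976). S100a10 ran like Hdac4 (0.969), AU022252 (0.957) and Ebf2 (0.952), and S100b like Sirt2 (0.973), Tef (0.972) and Gpr37l1 (0.968), of which Sirt2 and Gpr37l1 are abundant in oligodendrocytes and astrocytes. The values for Pvalb, led by Capn15 (0.704), rest on 1 plate. Plates of a stage share their age, and depth and cell mixture differ between plates.

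The left and right plates of the second set were compared to ask whether the members differ between sides. Calb2 stood at 194 and 136 CPM on the left and 209 and 239.5 CPM on the right, so that both right plates were higher. Necab2 was at 659.6 and 571 CPM on the left and 696 and 646 CPM on the right, and Necab3 at 34.3 and 34.1 against 31.7 and 43.3 CPM. Calb1 was at 69.3 and 39.0 against 46.7 and 42.2 CPM, Necab1 at 35.8 and 17.8 against 28.4 and 28.3 CPM, and S100a10 at 19.3 and 7.57 against 16.8 and 11.5 CPM. Of these only the ranges of Calb2 did not overlap. S100b had 8 and 9 UMIs on the left and 7 and 3 on the right and did not pass the filter on low counts. None of the 6 members tested passed (0% of 15489 genes did), none had an unadjusted p under 0.05 in edgeR's test, and DESeq2 called none of the 6. The right against left log2 difference of Calb2 was 0.41 ± 0.21 (unadjusted p = 0.0750, adjusted p = 1.00 by edgeR's quasi-likelihood test), and that of Necab2 was 0.10 ± 0.19. At this number of plates differences of this size were not detectable. Erythroid markers stood at 19048 and 17220 CPM on the left plates and at 3410 and 266 CPM on the right, and their part in the comparison was not tested.

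**Figure D2:**
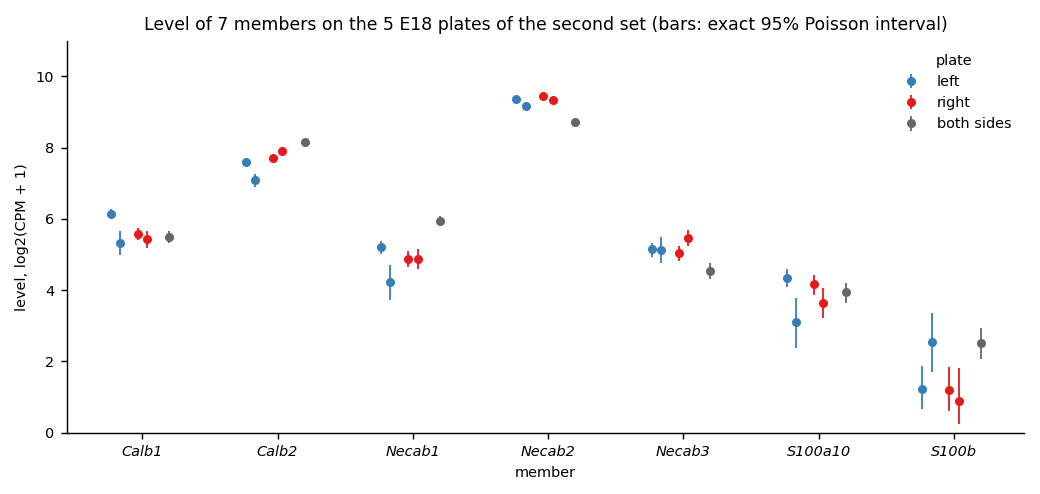
Level in CPM of the 7 members of the second set on the left, right and both-sides plates at E18, 1 point per plate, as log2(CPM + 1), with bars for the exact 95% Poisson counting interval. Left and right ranges overlap for every member except Calb2 and S100b: Calb2 was at 136 and 194 CPM on the left and 209 and 239.5 CPM on the right, and S100b at 1.35 and 4.87 against 1.27 and 0.865 CPM.

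Within plates, wells with a Pou4f1 UMI were compared with wells without one, after each well was thinned to 2000 UMIs so that depth did not decide the class. By construction the thinned negative class also holds wells whose Pou4f1 UMIs were lost in thinning: on P4 plate 1 it had 108 wells, where 23 of the kept wells had no Pou4f1 UMI at full depth. This comparison asks which members go with the habenular neuron marker, and differences between plates do not enter it. In the second set 5 of 7 members passed, where 19.7% of 14833 genes did. Necab2 was at 914, 767, 921, 833 and 864 CPM in positive wells and at 346, 227, 361, 330.1 and 186 CPM in negative wells of the 2 left, 2 right and both-sides plates, in that order. No plate overlapped, and the log2 difference was 1.68 ± 0.14 (adjusted p = 8.98e-06). With wells classed at full depth Necab2 stood at 786, 653, 795, 761 and 730.3 CPM against 54.8, 40.7, 122, 53.0 and 43.0 CPM, a log2 difference of 3.76 (adjusted p = 2.32e-06), so the size of the difference depended on the class rule. Necab3 was at 45.7, 39.99, 40.5, 47.9 and 34.3 CPM against 20.3, 22.6, 18.5, 35.0 and 16.2 CPM, higher in positive wells on 5 of 5 plates by 1.02 ± 0.15 (adjusted p = 0.000523).

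Other members went the other way in the second set. Necab1 was at 23.5, 17.0, 22.4, 16.6 and 25.8 CPM in Pou4f1-positive wells and 50.5, 19.6, 37.5, 43.6 and 78.9 CPM in negative wells, lower on 5 of 5 plates (-1.05 ± 0.17, adjusted p = 0.00124). S100b was lower on 5 of 5 plates (-2.57 ± 0.60, adjusted p = 0.0101), with at most 0.906 CPM in positive wells. With wells classed at full depth it was at 1.22 against 1.96 CPM on left plate 1. The right plates had 1.06 against 2.47 and 0.689 against 1.77 CPM. Larger differences were found on left plate 2 (1.87 against 24.4 CPM) and the both-sides plate (0.279 against 10.0 CPM). All of these levels rest on few UMIs. S100a10 was lower on 4 of 5 plates (-0.86 ± 0.24, adjusted p = 0.0261), a call lost in 6 of 14 settings, among them leaving out the both-sides plate, left plate 1 or right plate 1. Calb1 and Calb2 showed no difference beyond the spread, at 0.34 ± 0.24 and -0.07 ± 0.17.

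In the series the split could be made on 14 plates, and 2 of 8 members passed, where 18.1% of 16016 genes did. Necab2 was higher in Pou4f1-positive wells on 13 of 14 plates, by 0.51 ± 0.09 (adjusted p = 0.000369). At E13 it stood at 581 and 191 CPM in positive wells against 301 and 74.0 CPM, and at E18 at 119.6 and 546 against 67.2 and 283 CPM, while P4 plate 1 had 1189 CPM in positive and 1191 CPM in negative wells. With wells classed at full depth that plate had 1223 against 214 CPM, Necab2 was higher in positive wells on 15 of 15 plates, and the log2 difference was 1.88 (adjusted p = 2.16e-07). S100b was lower by 2.70 ± 0.63 (adjusted p = 0.00661), with 2.59 against 82.6 CPM on adult plate 2, and the call was lost without that plate (-2.01, adjusted p = 0.0670) and with DESeq2 (-1.07, adjusted p = 0.596). Its size was -3.35 without P4 plate 2 and -3.71 with wells classed at full depth. Necab3 and S100a10, which passed in the second set, did not pass here. They were at 0.30 ± 0.11 (adjusted p = 0.0735) and -0.01 ± 0.25 (adjusted p = 0.990). Calb1 (0.41 ± 0.20, adjusted p = 0.172) and Calb2 (0.08 ± 0.24, adjusted p = 0.889) did not pass either. With wells classed at full depth Necab3 was higher in positive wells on 13 of 15 plates, Calb1 on 12 and Calb2 on 9. Also at full depth, S100a10 was higher in positive wells on both E11 plates (354 and 360.4 against 114 and 55.0 CPM). S100a10 was lower in positive wells on all 4 plates of P4 and P7 (3.16, 0.791, 1.08 and 1.29 against 62.6, 19.9, 124 and 7.95 CPM). Few negative wells held it there: 6 of 23, 4 of 31, 11 of 30 and 1 of 35 in the same order. Necab1, lower in positive wells in the second set, differed by +0.17 ± 0.18 here (adjusted p = 0.604), higher on 5 of 14 plates. At full depth it was higher in positive wells on 9 of 15 plates, among them E11 (35.2 and 42.2 against 17.5 and 17.2 CPM), E12 (41.2 against 10.7 CPM) and P4 (51.7 and 39.4 against 5.22 and 4.98 CPM). Over all plates the full-depth difference of 0.56 did not pass (adjusted p = 0.283), and in the second set it was -0.75 (adjusted p = 0.00684). The difference between the sets was not tested.

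**Figure D3:**
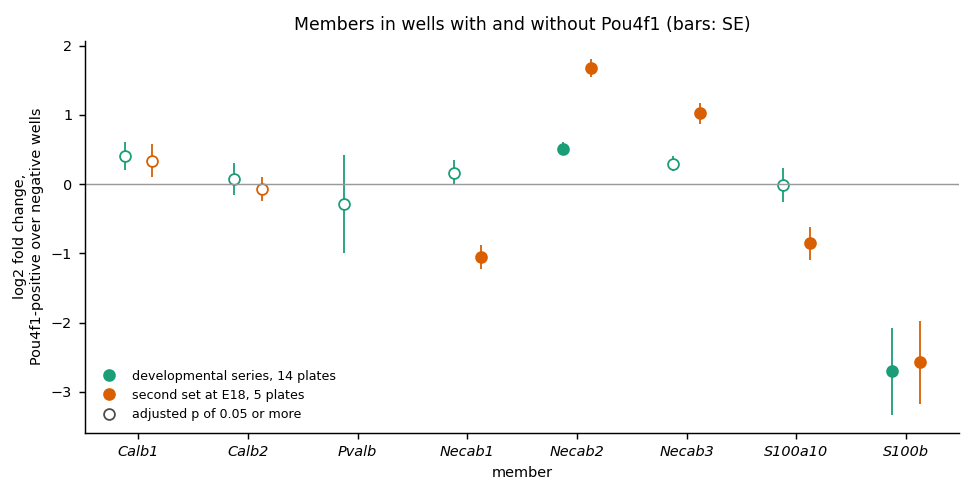
Log2 fold change of each member, Pou4f1-positive over Pou4f1-negative wells, with its SE as a bar, in the series (14 plates) and the second set (5 plates); open points have an adjusted p of 0.05 or more. Necab2 lies above 0 in both (0.51 and 1.68) and S100b below 0 in both (-2.70 and -2.57), the first a call lost without adult plate 2 and with DESeq2.

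To see which members are found in the same wells, wells of the P4 and P7 plates were classed by a UMI of 1 member after thinning to 5000 UMIs, and all genes were compared between the classes within plates. Calb1 and Calb2 went together, and Necab3 was lower in the wells positive for either. Of the other members tested, 4 of 6 passed in the Calb1 split, 4 of 7 in the Calb2 split, 0 of 7 in the Necab1 split and 3 of 7 in the Necab3 split. The share of all genes that passed was 10.3% of 13618, 8.13% of 13931, 0.381% of 13925 and 6.05% of 14117 in the same order.

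Calb2 was at 471, 539, 1222 and 1348 CPM in Calb1-positive wells of P4 plates 1 and 2 and P7 plates 1 and 2, and at 156, 68.3, 413 and 458 CPM in Calb1-negative wells. Every plate was higher in the positive class, by 1.88 ± 0.15 (adjusted p = 2.90e-08). In the reverse split Calb1 was at 119.8, 184, 165 and 242 CPM in Calb2-positive wells and at 19.4, 14.6, 20.2 and 37.1 CPM in the others, and no plate of a class reached the other class (3.01 ± 0.14, adjusted p = 5.54e-09). Both calls held in 15 of 15 alternative settings.

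Necab3 was at 53.2, 73.4, 151 and 119 CPM in Calb2-positive wells against 98.8, 99.96, 263 and 219.6 CPM in negative wells (-0.76 ± 0.09, adjusted p = 6.16e-05). It was lower in Calb1-positive wells as well, on 4 of 4 plates (-0.78 ± 0.14, adjusted p = 0.000823). When the wells were split by Necab3 instead, Calb2 was at 68.3, 50.8, 313 and 317 CPM in positive wells and 271, 164, 887 and 1048 CPM in negative wells. That is 1.67 ± 0.08 lower on the log2 scale (-1.67, adjusted p = 7.34e-07), and Calb1 was lower too (-1.37 ± 0.19, adjusted p = 0.00183). The difference of Necab3 in the Calb2 split was lost when wells were classed at full depth (adjusted p = 0.584), whereas both differences in the Necab3 split were called in 15 of 15 settings.

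Necab2 had a UMI in nearly all kept wells of these ages at full depth. It was 0.31 ± 0.06 higher in Calb1-positive and 0.30 ± 0.05 higher in Calb2-positive wells (adjusted p = 0.00116 and 0.00114 by edgeR). S100b had 2 counts in Calb1-positive wells and 130 in Calb1-negative wells of the 4 plates, a ratio of 16.3 per total count (95% counting interval 4.41 to 136). That interval treats UMIs as independent and covers counting error only, and the fitted log2 difference was -4.22, or -5.19 without P4 plate 1. S100b was also lower in Calb2-positive (-2.74 ± 0.60, adjusted p = 0.0101) and Necab3-positive wells (-2.25 ± 0.48, adjusted p = 0.0154), and both of these calls were lost without P7 plate 2 (adjusted p = 0.195 and 0.136). The first was also lost with wells classed at full depth (-1.95, adjusted p = 0.226), and the second among Pou4f1-positive wells (-1.43, adjusted p = 0.254) and with DESeq2. With wells classed at 2000 UMIs they were -4.48 and -4.27. No other member passed in the Necab1 split. Calb1 had the lowest adjusted p there, at 0.132 (-0.65 ± 0.16), and was lower in Necab1-positive wells on 4 of 4 plates.

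**Figure D4:**
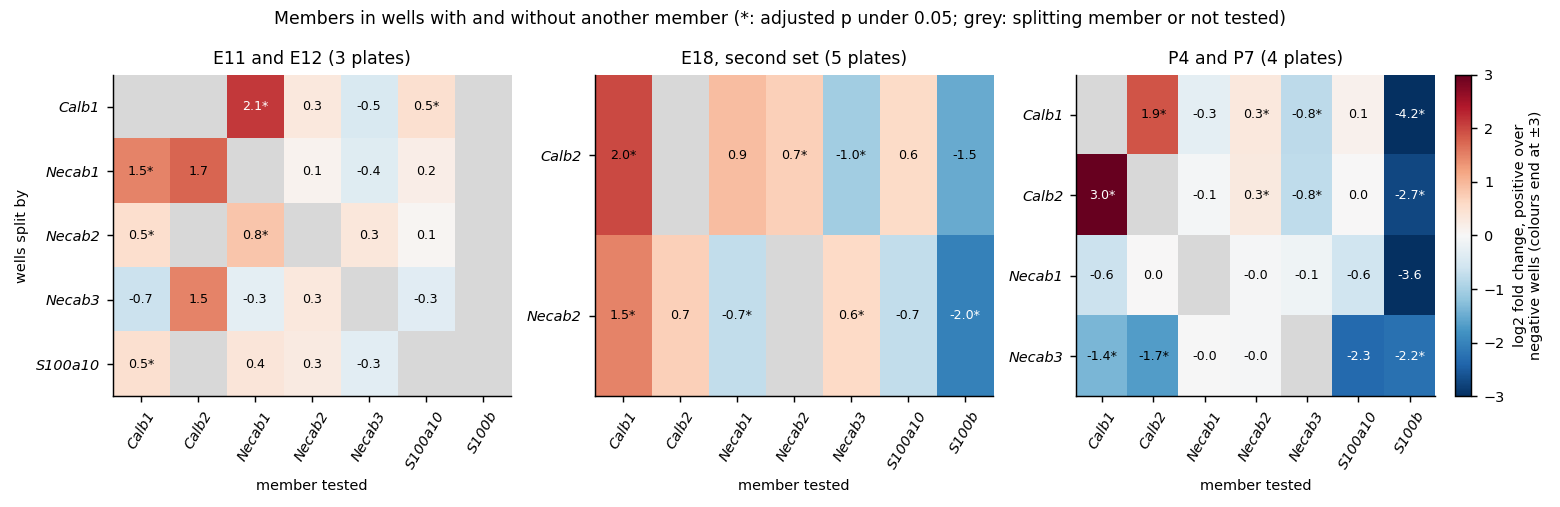
Log2 fold change of each member (columns) between wells positive and negative for another member (lines of the grid), at E11 and E12, in the second set at E18 and at P4 and P7; red is higher and blue lower in positive wells, stars mark an adjusted p under 0.05, and grey was not tested. At P4 and P7 Calb2 in Calb1-positive wells (1.88) and Calb1 in Calb2-positive wells (3.01) are red, and Calb2 in Necab3-positive wells (-1.67) is blue.

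The same was asked in the second set at E18, where Calb2 and Necab2 had enough wells on every plate and 7 pairs passed. Calb1 was at 131, 86.7, 83.5, 81.6 and 93.5 CPM in Calb2-positive wells and at 46.5, 15.7, 28.4, 22.8 and 14.4 CPM in negative wells, higher on 5 of 5 plates by 1.98 ± 0.19 (adjusted p = 6.76e-05). Necab3 was at 11.2 to 23.5 CPM against 29.3 to 54.3 CPM, lower on 5 of 5 plates (-1.05 ± 0.16, adjusted p = 0.00156), and Necab2 was 0.72 ± 0.09 higher. The Calb2 split thus called 3 members, where 9.78% of 14356 genes passed, in the directions seen at P4 and P7. Necab2-positive wells, where 19.6% of 14655 genes passed, held more Calb1 (1.49 ± 0.26, adjusted p = 0.00219) and Necab3 (0.59 ± 0.15, adjusted p = 0.0150). They held less Necab1 (-0.73 ± 0.20, adjusted p = 0.0269) and S100b (-2.03 ± 0.53, adjusted p = 0.0206). The Necab3 and Necab1 calls were lost in 7 and 8 of 16 settings, and all of Necab3, Necab1 and S100b without left plate 1. Pou4f1 itself was 2.24 ± 0.27 higher in Necab2-positive wells (adjusted p = 0.000270), so this split and the Pou4f1 split class many of the same wells.

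At E11 and E12, a period added to the plan after the levels were seen, Calb1 went with Necab1. Necab1 was at 70.6, 73.3 and 75.4 CPM in Calb1-positive wells of E11 plates 1 and 2 and the E12 plate, and at 18.3, 18.5 and 14.7 CPM in negative wells (2.13 ± 0.15, adjusted p = 5.59e-06). In the reverse split Calb1 was at 311, 451 and 726 CPM against 116, 197 and 217 CPM (1.48 ± 0.10, adjusted p = 7.85e-09). The Calb1 split passed 9.08% of 12582 genes and called 2 members, the other being S100a10 (373, 415 and 178 CPM against 331, 298 and 107 CPM, 0.49 ± 0.09, adjusted p = 0.00518). The Necab1 split passed 1.88% of 12738 genes and called Calb1 alone. In the Necab2 split (2.43% of 12785 genes) Calb1 and Necab1 were higher in positive wells, by 0.51 ± 0.08 and 0.84 ± 0.17. The S100a10 split (7.46% of 12783 genes) called Calb1 (0.48 ± 0.14, adjusted p = 0.0413), a call lost in 6 of 14 settings and at 1.66 with wells classed at full depth, and the Necab3 split (0.107% of 13109 genes) called no other member.

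The relation of Calb1 and Necab1 differed between the periods. In the Calb1 split the log2 difference of Necab1 was 2.46 ± 0.24 smaller at P4 and P7 than at E11 and E12 (adjusted p = 2.09e-06 in edgeR's test of the interaction, where 5.06% of 14143 genes passed). In the Necab1 split that of Calb1 was 2.13 ± 0.19 smaller (adjusted p = 1.16e-06, where 0.481% of 14970 genes passed). The Necab1 classes themselves differed less in Necab1 at P4 and P7 (-1.31 ± 0.21, adjusted p = 0.00333). For Calb1 in its own split the change was 0.56 ± 0.19 and did not pass (adjusted p = 0.101). At P4 and P7 Necab1 itself was at 37.7 to 58.3 CPM in Calb1-positive and 38.3 to 64.4 CPM in Calb1-negative wells, with an overlap (-0.30 ± 0.16, adjusted p = 0.317). For the Necab3 split, where 0.978% of 15749 genes passed, no difference between periods was found for another member.

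Wells that held both members of a pair, at 5000 UMIs each, were counted as a description. Calb1 and Calb2 were found together in 184 of 1118 wells at P4 and P7, where the product of their shares within plates gave 124.4, and the ratio lay between 1.30 and 2.52 on the 4 plates. It was 1.46 to 2.30 on 4 plates of the second set and 1.13 to 1.37 on the 2 adult plates. Calb1 and Necab1 shared 64 of 842 wells at E11 and E12 against 33.44 from the product (ratios 1.78 to 2.10), and 33 against 40.05 at P4 and P7 (0.612 to 0.941). Calb1 and Necab3 shared 70 wells against 90.33 at P4 and P7, with ratios of 0.644 to 1.16 and above 1 on 1 of 4 plates. Calb2 and Necab3 shared 164 wells against 201.8 at P4 and P7, with a ratio under 1 on 4 of 4 plates, and 104 against 94.52 in adults, with a ratio above 1 on 2 of 2. Whether that change between P7 and adults exceeds the spread was not tested. Pou4f1 was found in 37.5% and 52.6% of kept wells on the adult plates, against 88.1% to 92.0% at P4 and P7. The part of this difference in cell mixture in the ratios was not tested. On adult plate 2, Necab3 and S100b shared 7 wells against 22.5, and S100a10 and S100b shared 8 against 4.29.

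**Figure D5:**
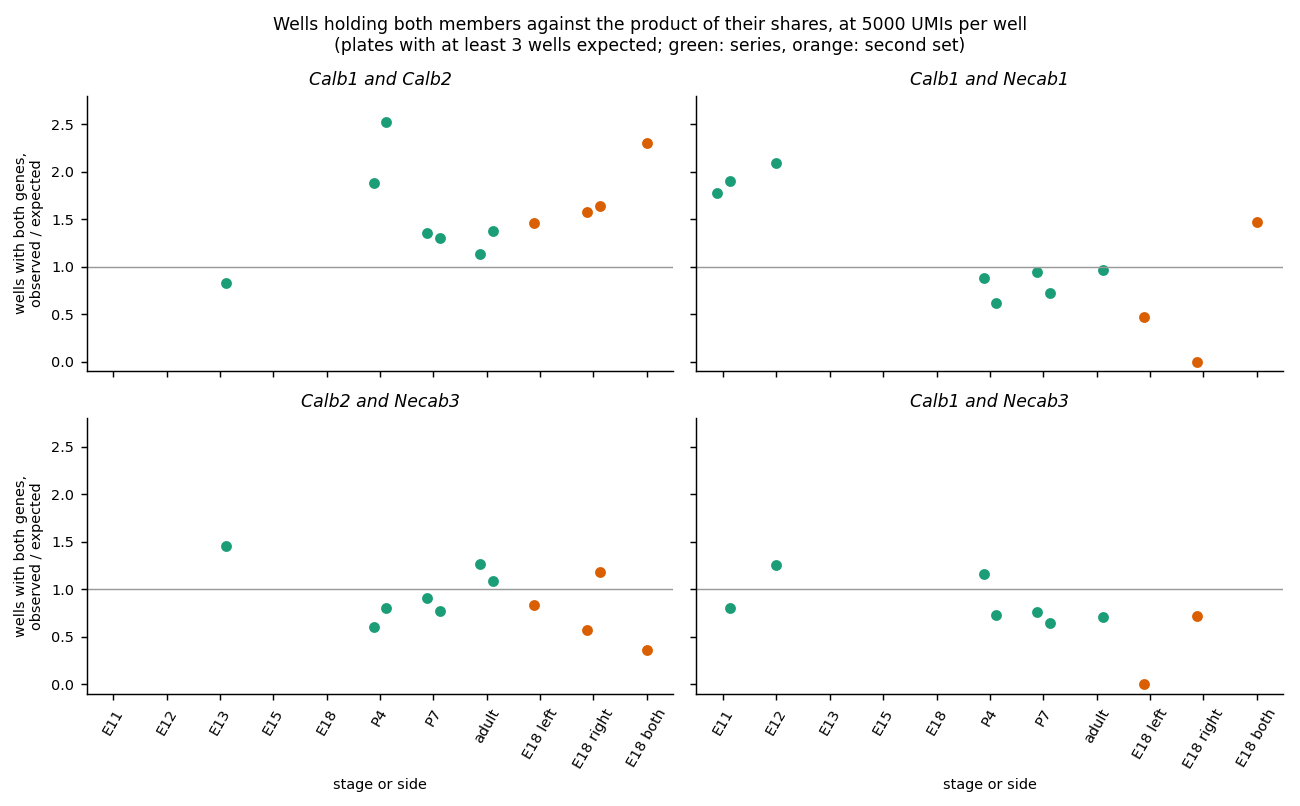
Ratio of wells holding both members of a pair to the number given by the product of their shares, at 5000 UMIs per well, with 1 point per plate and a line at 1. Calb1 with Calb2 lies above 1 on all 4 plates of P4 and P7 (1.30 to 2.52), and Calb1 with Necab1 lies above 1 on the 3 plates of E11 and E12 and below 1 on the 4 plates of P4 and P7.

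The wells classed by a member also differed in the summed markers of the habenular divisions and of other cells, in wells thinned to 2000 UMIs. At P4 and P7 a lateral habenula list stood at 1776 to 2176 CPM in Calb1-positive and 1023 to 1196 CPM in Calb1-negative wells, and at 1346 to 1658 against 987 to 1162 CPM in the Calb2 split. The medial list, from which Calb2 was left out, was lower in the positive wells of both splits on 4 of 4 plates. This holds for the sum: Wif1, a gene of the list, was higher in Calb2-positive wells by 4.22 ± 0.19. In Calb1-positive wells the medial list was also lower on 3 of 3 plates at E11 and E12 (367 to 384 against 406 to 416 CPM). The same held on 3 of 3 plates of the second set (546 to 631 against 584 to 842 CPM). On the 1 adult plate with enough wells the list was higher (3677 against 3331 CPM). In Calb2-positive wells the medial list was higher on 2 of 4 plates of the second set and on 2 of 2 adult plates (3322 to 3795 against 1717 to 2922 CPM). The adult wells were mixed, with the oligodendrocyte list at 10647 and 2453 CPM on the 2 plates. The part of this mixture in the adult differences was not tested. In the Necab3 split at P4 and P7 the order was the opposite on every plate: the lateral list was at 893 to 1128 against 1110 to 1483 CPM, and the medial list was higher. The medial list was also higher in Necab3-positive wells on the 1 plate of E11 and E12 with enough wells and on 2 of 2 adult plates, but on 1 of 2 plates of the second set (480 to 1181 against 803 to 807 CPM). Vascular markers were at 41.6 to 73.1 CPM in Calb1-positive against 126 to 866 CPM in Calb1-negative wells, and astrocyte markers at 24.1 to 69.8 against 184 to 470.4 CPM. Among Pou4f1-positive wells alone, the log2 difference of Calb2 in the Calb1 split was 1.83 and that of Calb1 in the Calb2 split 2.97. Necab2-positive wells of the second set had habenula markers at 2102 to 2910 against 517 to 1206 CPM and medial markers at 999 to 1046 against 342 to 570 CPM. S100b-positive wells of adult plate 2, 41 against 286, held oligodendrocyte markers at 8925 against 1999 CPM, astrocyte markers at 5853 against 1137 CPM and neuron markers at 1799 against 5100 CPM.

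Other genes that went with a member in the same wells were named by size of change. At P4 and P7 the largest increases in Calb1-positive wells were Rxfp2, a relaxin family receptor, at 2.90 ± 0.17, and Oprm1, the mu opioid receptor, at 2.85 ± 0.11. Oprm1 was at 265 to 469 CPM in Calb1-positive and 35.9 to 76.0 CPM in negative wells. The gene models Gm45455, Gm45341 and C130073E24Rik followed, at 2.46, 2.46 and 2.41, and whether these models share reads was not tested. Col1a1, Dcn and Igf2, genes of fibroblast-like cells, were lowest (-4.57, -4.34 and -4.12), and all 3 were lost among Pou4f1-positive wells.

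In Calb2-positive wells Pde11a, a phosphodiesterase, was higher by 4.36 ± 0.14, the neuropeptide gene Cck by 4.27 ± 0.19, the Wnt inhibitor gene Wif1 by 4.22 ± 0.19 and Oprm1 by 3.88 ± 0.21. Gad1, which encodes an enzyme of GABA synthesis, was higher by 4.57 ± 0.27, but P4 plate 2 had only 2.02 CPM in positive wells, where the highest plate had 147 and negative wells had 1.42 to 6.03 CPM. Olig1 (-2.51), Rgs5 (-2.27) and Sst (-1.88) were lower, of which Rgs5 was lost in 4 of 15 settings, Pou4f1-positive wells and leaving out P4 plate 2 or P7 plate 2 among them, and Sst when wells were classed at full depth. In Pou4f1-positive wells Rgs5 turned to 0.75, and at full depth Sst turned to 0.68. At E18, in the second set, Wif1 (2.81 ± 0.20), Pde11a (2.75 ± 0.22), Stum (2.73 ± 0.22), Oprm1 (2.49 ± 0.29) and Dock5 (2.35 ± 0.18) led the Calb2-positive wells, and Ttr, Id3 and Sparc were lowest (-4.29, -4.18 and -4.00). Pde11a, Wif1 and Oprm1 were thus among the 5 named in both sets of plates.

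Necab3-positive wells at P4 and P7 held more Syndig1l (1.21 ± 0.15), Tpbgl (1.11 ± 0.11), Cpne9 (1.04 ± 0.17), Mab21l1 (1.04 ± 0.15) and Lrrc55 (0.84 ± 0.10), a regulatory subunit of large-conductance potassium channels. They held less Rgs5 (-4.10), Hes1 (-3.50) and Gad1 (-2.97 ± 0.18), the last at 0 to 22.9 CPM against 2.28 to 149.9 CPM. Necab1-positive wells held more Gad1 (1.43 ± 0.23), Nrxn3 (0.89 ± 0.09), March1 (0.82 ± 0.13), Mctp1 (0.81 ± 0.16) and Grik1 (0.73 ± 0.14). The calls of Nrxn3, March1, Mctp1 and Grik1 held in 13, 11, 8 and 7 of 15 settings, and those of the last 3 were lost without P4 plate 1 or P7 plate 1. Grik1 turned to -0.15 with wells classed at 2000 UMIs. The Gad1 call was lost in 4 of 15 settings, P4 plate 1 or P7 plate 1 left out among them, and on 1 of 4 plates Gad1 was not higher. Rgs5 (-3.46), Fabp7 (-2.50) and Olig1 (-2.49) were lower. These 3 calls and that of Rgs5 in the Necab3 comparison were lost among Pou4f1-positive wells, and the Necab1 call of Rgs5 also without P7 plate 1. Necab2-positive wells of the second set were led by Gpr151 (5.19 ± 0.37), an orphan receptor known from habenular neurons, Kcng4 (3.92 ± 0.39), Syt6 (3.74 ± 0.23), Sncg (3.64 ± 0.21) and the tachykinin gene Tac2 (3.38 ± 0.33). Of these Gpr151 is on the lateral habenula list and Tac2 on the medial list. Pdgfra (-3.40), Cspg4 (-3.12) and Ednrb (-3.11) were lowest, and the first pair marks oligodendrocyte precursors.

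At E11 and E12 the largest increases in Calb1-positive wells were Necab1 itself, Avil (2.12 ± 0.21), Pcdh11x (2.04 ± 0.18), Grin3a (1.99 ± 0.17), an NMDA receptor subunit gene, and Prr16 (1.95 ± 0.33). In Necab1-positive wells Calb1 came in rank after Car10 (1.53 ± 0.14) and Hs6st3 (1.49 ± 0.25) and ahead of Cbln4 (1.24 ± 0.30) and Opcml (1.10 ± 0.13). In Necab2-positive wells the tachykinin gene Tac1 (1.27 ± 0.10), Tesc (1.43 ± 0.23) and Robo3 (1.32 ± 0.18) were higher on 3 of 3 plates, whereas Cd93 (2.44) and Igfbp7 (1.54) changed sign when wells of very high depth were left out. S100a10-positive wells were led by the collagen genes Col3a1 (4.41 ± 0.27), Col1a1 (4.27 ± 0.31) and Col1a2 (3.95 ± 0.36), which on 1 of 3 plates were at 2.24 CPM or less. Lhx1 (-3.83), Mecom (-3.23) and Selenop (-3.12) were lower in them.

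A list of 52 genes, made up of other EF-hand genes and the S100a10 partner Anxa2, set the members among their relatives. Over all stages 23 of its 38 tested genes passed, where 46.4% of all genes did. From E18 to P4, 4 of 38 passed, a share below the 19.6% of all genes, of which 2 rose and 2 fell (median log2 change 0.14, all genes -0.07): the calcium-binding protein gene Cabp1 rose by 5.35 ± 0.28 and the calcium sensor gene Hpcal4 by 3.47 ± 0.70, while S100a11 (-2.45) and Efhd2 (-1.79) fell. From P7 to adults Efhd1 (4.31) and S100a1 (3.29) rose, and Cabp1 fell from E13 to E15 by 3.01 ± 0.34. No list gene passed from E11 to E13, from E15 to E18, from P4 to P7 or between sides. In the Pou4f1 split of the series, where 18.1% of all genes passed, 16 of 37 list genes did. Of these 6 were higher in positive wells, led by Tesc (0.62), which encodes tescalcin, and Hpcal1 (0.44). In those wells 10 were lower, led by Efhd1 (-3.12) and S100a6 (-2.97) (median -0.08, all genes 0.03). In the second set, where 19.7% of all genes passed, 6 were higher and 12 lower of 34 (median -0.29, all genes 0.03), with Tesc (1.60) and the potassium channel partner gene Kcnip1 (1.54) leading the first and S100a6 (-2.67) and S100a16 (-2.41) the second.

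Among member splits, 13 of 35 list genes differed in Calb1-positive wells at P4 and P7 (3 higher, 10 lower, median -0.10, all genes 0.00), where 10.3% of all genes did. They included Caln1 (1.12) and Hpcal4 (0.69) above and S100a6 (-3.99) and S100a13 (-3.55) below. In Calb2-positive wells, where 8.13% of all genes passed, 3 were higher and 9 lower of 37 (median -0.05, all genes 0.00), with Kcnip4 (1.00) and Caln1 (0.93) above and S100a16 (-1.998) and S100a1 (-1.40) below. Kcnip4 was also higher in Calb2-positive wells at E18 (0.95) and in Calb1-positive wells at E11 and E12 (1.62), and it was lower in Necab3-positive wells at P4 and P7 (-1.04 ± 0.11, adjusted p = 0.000218). Cabp1 (0.68) and Tesc (0.59) were higher in Necab3-positive wells, and Tesc was higher in Necab2-positive wells at E18 (1.71) and at E11 and E12 (1.43). Anxa2, the partner of S100a10, was tested and not called in the S100a10 split at E11 and E12. It was called lower in positive wells of the Calb1 split in both periods, of the Calb2, Necab2 and Pou4f1 splits of the second set, of the Calb2 and Necab3 splits at P4 and P7 and of the Pou4f1 split of the series.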

How the data were processed

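The values are expected counts per gene and well, which the authors deposited as UMI counts corrected for identifier collisions, with spliced counts in separate tables. For a UMI of 6 bases, undoing that correction gave whole numbers (within 1e-06) for 100% of nonzero values, against 46.12% of the series values as deposited. The submitters' processing notes name STAR 2.5.3a, Trim Galore and the build mm10. The counter, annotation and strand setting were not given in the sources used here. A plan for whole counts was kept by summing expected counts over the kept wells of a plate and rounding the sums.

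Wells were kept with at least 1000 UMIs, at least 500 genes and at most 20% mitochondrial counts. Spike-in features were left out. CPM is the sum for a gene per 1000000 counts of the kept wells. The plate was the replicate. Sums were fitted across all genes with edgeR 4.0.16 (filterByExpr, TMM, quasi-likelihood test, Benjamini-Hochberg adjustment at 0.05). The stage fit used all series plates except the E12 plate, which was left out. The side fit used the 4 left and right plates. The plate was a block where wells of a plate were split. Wells were classed by a UMI after thinning to 2000 UMIs (Pou4f1) or 5000 UMIs (members), with at least 10 wells per class on a plate. Unless another tool is named, every adjusted p is from this edgeR test. Intervals and limits cover counting error only, and a count of 0 was taken to allow 3 counts.

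Gene positions are from GENCODE M21, which held 37938 of 37994 series IDs and 36050 of 36104 in the second set. The members, lists and tests were chosen with earlier results of these data known. The splits at E11 and E12 and the comparison of periods were added after the levels were seen. Named genes were the members, the 5 highest and 3 lowest other genes of a split among those with an adjusted p under 0.05 and a mean of at least 20 CPM, the 3 most correlated genes, and the 2 highest and 2 lowest called EF-hand genes. Correlations of same-numbered plates after removing stage means lay between -0.363 and 0.25, and the numbers were not taken as pairs. Alternatives were DESeq2 1.42.0, RLE size factors, no filter, spliced counts, recovered UMIs, other well filters and depths, Pou4f1-positive wells alone and leaving out each plate. Tested on simulated data, the stage fit recovered 99% of 100 genes changed 8-fold and 8% of 100 changed 2-fold over 16165 genes. The Calb2 split recovered 100% and 98% over 13766 genes, and the side fit 97% and 4% over 15351. The simulated spread was set smaller for the Calb2 split than for the stage and side fits, so recovery cannot be compared between them. Within a simulation all genes had the same fixed spread, and only genes above a set mean count were changed. Recovery for the members, whose spread between plates can be larger, may therefore be lower. Fits ran in R 4.3.3 with limma 3.58.1. Tables and plots were made with pandas 2.3.3, matplotlib 3.10.9, scipy 1.17.1 and numpy 2.4.6 under Python 3.11.15.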

Additional observations from a re-analysis of the deposited data

Results flagged for a closer look

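The relation of Calb1 and Necab1 in the same wells differed between the early and the postnatal plates by a test of the difference itself. In wells split by Calb1, the log2 difference of Necab1 at P4 and P7 minus that at E11 and E12 was -2.46 ± 0.24 (adjusted p = 2.09e-06, edgeR's quasi-likelihood test). In wells split by Necab1, the same quantity for Calb1 was -2.13 ± 0.19 (adjusted p = 1.16e-06). Both rest on the same wells and are not independent. For the splitting gene itself the same quantity was -1.31 ± 0.21 in the Necab1 split and 0.56 ± 0.19 in the Calb1 split. The late Necab1 classes were thus less distinct in Necab1. The early group has 3 plates and the late group 4.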

How the results depend on the processing

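With 2 plates per stage, steps between stages depended on single plates and on the fit, and the cause was not tested. Leaving out 1 plate at a time, the members called ranged from 0 to 2 for E11 to E13 (3 as reported), 0 to 1 for E15 to E18 (0), 0 to 7 for E18 to P4 (4), 0 to 0 for P7 to adult (1) and 6 to 7 over any stage (7). A fit of only the 4 plates compared called 0 for E18 to P4, 4 for P4 to P7 and 2 for P7 to adult. Without a filter on low counts 2 were called for E13 to E15, 2 for E15 to E18, 8 for E18 to P4, 3 for P4 to P7 and 3 for P7 to adult. Spliced counts called 0 for P7 to adult. For left against right the number was 0 in every alternative run.

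For the Pou4f1 split of the series, 2 as reported became 1 with DESeq2, 4 with wells split at full depth, 4 without the filter, and 1 to 2 leaving out a plate. In the second set it was 3 to 5 (5). Member pairs at P4 and P7 ranged from 8 to 12 (11) leaving out a plate. In the second set the 7 pairs became 4 with wells split at 2000 UMIs, 4 with only Pou4f1-positive wells, 4 with thinned counts in the sums, and 4 to 8 leaving out a plate. At E11 and E12 the 6 became 3 at 2000 UMIs and 5 to 7.

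No pairing of plates by number was seen. With the replicate block 4 members were called for E11 to E13, Calb1 being added, and 4 for E18 to P4, 1 for P7 to adult, 7 over any stage and 0 between sides.

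Of single genes called in the main or the alternative run, 9 values changed sign. Rgs5 in the Calb2 split at P4 and P7 was 0.75 in Pou4f1-positive wells, Sst there 0.68 at full depth, and Grik1 in the Necab1 split -0.15 at 2000 UMIs. At E11 and E12, Cd93 in the Necab2 split was -2.86 at 2000 UMIs and -0.38 without wells above 3 times the median UMIs, and Igfbp7 -2.10 and -0.43. Col4a1 in the Necab3 split was 0.23 and S100a16 in the S100a10 split 0.024, both at full depth. Of the other values 3488 stayed called or stayed not called, 55 gained a call and 252 lost it. Necab1 had 5 to 24 UMIs per plate at E13 and E15, which limits its levels there. The same holds for Necab1 on adult plate 1, which kept 56 of 384 wells, and for Calb1 on the E18 series plates. On E18 plate 1, Calb1 was found in 0 of 75 Pou4f1-positive and 8 of 192 Pou4f1-negative wells. On E18 plate 2 it was found in 9 of 94 and 0 of 16. Shares of positive wells depended on depth. With wells thinned to 2000 UMIs, or with at least 2 UMIs asked for, 126 shares moved beyond their plate SD or counting interval. The other 44 did not.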

Other observations

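At E11 and E12, Necab3-positive wells held more 2610307P16Rik (1.34 ± 0.22), Igfbpl1 (1.23 ± 0.22) and Cntn2 (1.11 ± 0.20), the gene of a cell adhesion molecule of growing axons, and less Cacna2d3 (-2.25 ± 0.35) and Car10 (-2.15 ± 0.37), on log2 scale. Car10 was higher by 1.53 ± 0.14 in Necab1-positive wells of the same plates. Gm49394 and Igf2 were both higher in S100a10-positive wells there, by 1.92 and 1.91, and their reads may not be separable.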
